A study of Mus musculus with 40 samples.

Results

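The cerebral cortex of old Ttpa-/- mice kept on a vitamin E deficient diet was compared with the cortex of young wild-type mice. The comparison was chosen by title, as the 4 arrays of the first group against the 4 arrays of the second, which are 8 of the 40 arrays in the series. The Ttpa-/- mice were 29 months old, lacked both copies of Ttpa, and ate the diet deficient in α-tocopherol. The young mice were wild type, 2 months old, and were fed normal chow holding 36 mg/kg α-tocopherol. All mice were on the C57Bl/6 background, 4 mice per group by the methods, and RNA came from whole cortex tissue rather than from sorted cells. The other 3 cortex groups, each with 4 arrays, were 29-month-old wild-type mice fed the normal or the deficient diet, and 29-month-old Ttpa-/- mice fed a diet supplemented to 600 mg/kg α-tocopherol. Age, genotype, diet and the slide that carried the arrays all differed between the 2 groups compared, so their effects cannot be told apart in this contrast. Aged wild-type values are therefore given beside many of the results. Both comparisons with young cortex share the young arrays, and the direct contrast of Ttpa-/- with aged wild-type cortex is the test of the difference between them. Young and aged wild-type arrays were on 1 slide and the old deficient Ttpa-/- arrays on another, so slide and group cannot be told apart in the direct contrast either.

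Ttpa encodes the α-tocopherol transfer protein, a liver protein that loads dietary vitamin E into circulating lipoproteins. Without it, α-tocopherol is lost from plasma and tissues, and the membranes of long-lived cells such as neurons lose their main lipid-soluble antioxidant. In the aging brain, microglia and astrocytes are known to take on reactive states, with raised complement, major histocompatibility complex (MHC) and interferon-stimulated transcripts, while oligodendrocytes maintain the lipid-rich myelin sheath.

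Each value is the log2 of a probe's processed fluorescence intensity minus the log2 of the 75th percentile of its array, written below as log2 signal. A probe was tested where the scanner's software marked it well above background on every array of 1 or both groups. It was called up-regulated or down-regulated where limma's adjusted p was under 0.05 and the fold change was over 1.5. Of 28988 probes tested, 1261 (4.35%) were up-regulated in the old deficient Ttpa-/- cortex and 1052 (3.63%) were down-regulated. The values of the 2 groups did not overlap for 8194 probes, 28.3% of those tested, among them 1975 of the 2313 called. The median fold of the called probes was 1.71 in each direction. A fold over 2 was reached by 272 up-regulated and 234 down-regulated probes, and a fold over 4 by 33 and 24. With 1 probe per gene, the brightest over all arrays, 619 of 14854 genes (4.17%) were up-regulated and 425 (2.86%) were down-regulated. Between aged and young wild-type cortex the same rule gave 348 up-regulated (2.38%) and 62 down-regulated genes (0.424%) of 14630. Between the old deficient Ttpa-/- and aged wild-type cortex it gave 317 (2.13%) and 224 (1.51%) of 14859. Over all 21257 genes on the array the median log2 difference was -0.10 against young cortex, and it was 0.02 for aged wild type against young.

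**Figure D1:**
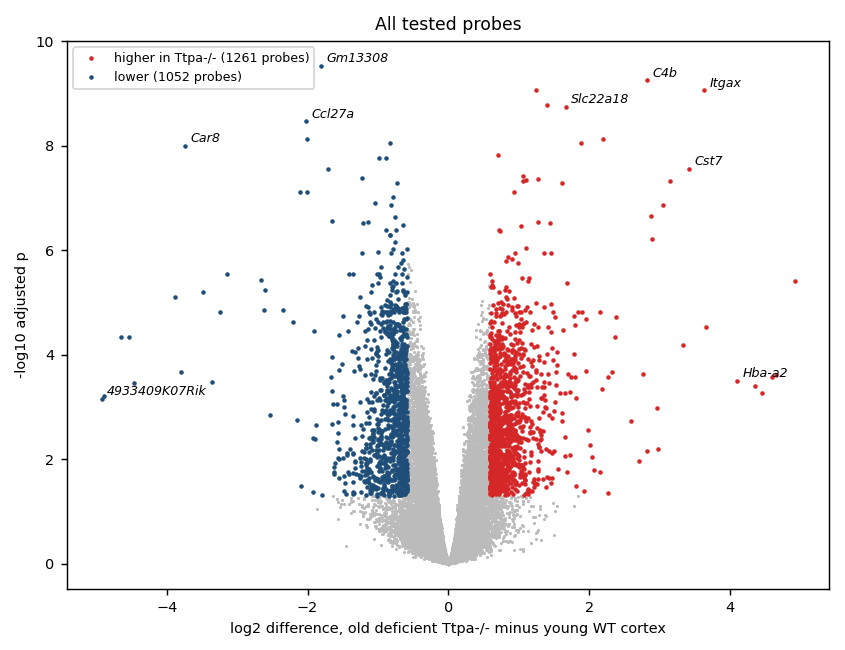
Log2 difference (x axis, old deficient Ttpa-/- minus young wild-type cortex) against -log10 of limma's adjusted p (y axis) for the 28988 tested probes. The 1261 up-regulated probes are red, the 1052 down-regulated ones blue, and uncalled ones grey, with C4b and Itgax far out to the right and 4933409K07Rik, Car8, Ccl27a and Gm13308 to the left.

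The 8 arrays were similar in brightness, with a 75th percentile of 365 to 549 intensity units and 51.4% to 56.9% of probes above background. Correlations over probes were 0.988 to 0.996 within the Ttpa-/- group, 0.984 to 0.995 within the young group and 0.975 to 0.99 between them. All 12 cortical neuron markers were above background on all 8 arrays and 0 of them were called. Ttpa itself was not well above background in either group, with log2 signals of -6.78, -7.03, -7.0 and -6.73 in Ttpa-/- and -5.16, -4.26, -4.71 and -4.49 in young cortex, so it gave no fold. Whether its probe lies inside the deleted part is not given in the sources used here.

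Before any comparison, 2 arrays stood apart in choroid plexus transcripts. The summed signal of 9 choroid plexus markers, in multiples of the 75th percentile, was 12.2 on Ttpa-/- replicate 1 against 170 to 178 on replicates 2 to 4. It was 2.61 on young replicate 4 against 116 to 135 on replicates 1 to 3. Ttr, which encodes the thyroid hormone carrier transthyretin and is the strongest of these markers, had a log2 signal of 3.44 and 0.76 on those 2 arrays and of 6.71 to 7.36 on the other 6. Calls that depended on these arrays are given with the genes or their list.

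Blood transcripts were higher in the old deficient Ttpa-/- than in the young cortex, as they were in every other aged cortex group. The summed signal of 7 blood markers was 15.6, 82.6, 474 and 88.3 in Ttpa-/- replicates 1 to 4 and 7.39, 6.2, 5.9 and 1.83 in young replicates 1 to 4. The hemoglobin genes Hbb-b1, Hba-a1 and Hba-a2 had the largest rises of all genes above background on all 8 arrays, at 4.60 ± 0.866 (SE, adjusted p = 0.000265), 4.35 ± 0.852 (adjusted p = 0.000395) and 4.10 ± 0.786 (adjusted p = 0.000321) in limma. Hba-a2 had log2 signals of 3.40, 5.81, 8.19 and 5.89 in Ttpa-/- and 2.37, 2.13, 2.05 and 0.35 in young cortex. Every Ttpa-/- array lay above every young one, with Ttpa-/- replicate 3 highest and young replicate 4 lowest. The part that blood left in the tissue plays in the genes below was not tested. The blood sum was 18.1 to 40.9 in aged wild-type cortex. The list median against young was 4.35 here and 2.53 in aged wild type. It was 3.70 in aged wild type on the deficient diet and 5.48 in supplemented Ttpa-/- cortex. The direct contrast of old deficient Ttpa-/- with aged wild type called 0 blood markers, and 0 to 3 as higher with single arrays left out. Of 11 T cell markers 4 were tested and 1, the chemokine Ccl5 (1.53 ± 0.299, SE, adjusted p = 0.000386 in limma), was up-regulated. Of the T cell markers, 6 were above background on none of the 8 arrays.

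**Figure D2:**
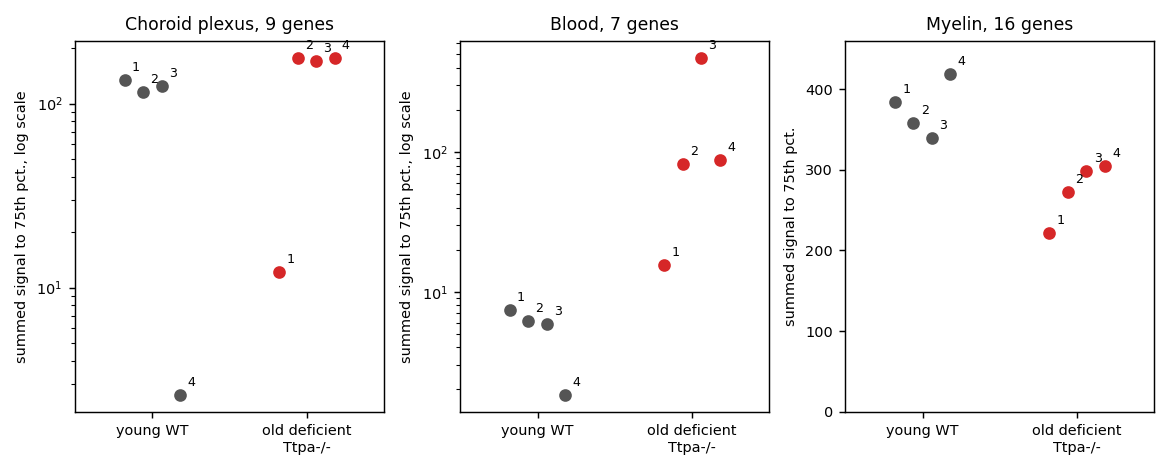
Summed signal in multiples of each array's 75th percentile (y axis, logarithmic in the left and middle panels and linear from 0 in the right one) on the 4 young and 4 old deficient Ttpa-/- arrays, with replicate numbers beside the points. Choroid plexus transcripts were low on young replicate 4 (2.61) and Ttpa-/- replicate 1 (12.2), blood transcripts peaked on Ttpa-/- replicate 3 (474), and the myelin sums of the groups (222 to 305 and 339 to 419) did not overlap.

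Genes of damage-associated microglia, the state that microglia take up around amyloid and in aged white matter, were the most numerous up-regulated group. Of 26 members, all tested, 14 were up-regulated and 0 down-regulated, with a median log2 difference of 0.67 beside -0.10 for all genes. Itgax, which encodes the integrin CD11c, had log2 signals of -2.39, -1.67, -1.42 and -1.56 in Ttpa-/- cortex and of -5.61, -6.28, -4.58 and -5.09 in young cortex. It was above background on 0 of the 4 young arrays, and its rise was at least 6.35-fold (adjusted p = 8.83e-10, limma). Cst7, which encodes the protease inhibitor cystatin F, rose at least 6.95-fold in the same way (adjusted p = 2.76e-08, limma). Clec7a, the β-glucan receptor dectin-1, ranged from -1.58 to -0.66 in Ttpa-/- and from -4.44 to -3.45 in young cortex, a log2 difference of 2.88 ± 0.318 (SE, adjusted p = 2.26e-07, limma). For these 3 genes no young array reached the lowest Ttpa-/- array. The chemokine genes Ccl3 (1.96) and Ccl4 (1.84), the lysosomal glycoprotein gene Gpnmb (1.78), Lgals3, which encodes galectin-3 (1.65), lysozyme Lyz2 (1.52) and osteopontin Spp1 (1.44) were also up-regulated. Cd52, Cd68, Ccl6, Igf1 and Csf1 completed the 14, at 0.62 to 1.11. Trem2, the receptor on which this state depends, differed by 0.19 and its adaptor Tyrobp by 0.25, and neither was called. Restricting the test to probes above background on all 8 arrays left 9 up-regulated members, and Ccl3 was not called after normexp background correction (0.57).

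The same microglial genes stood higher still in aged wild-type cortex. There 16 of the 26 members were up-regulated against young cortex, with a median of 0.84. In the direct contrast, 9 members were lower in the old deficient Ttpa-/- than in the aged wild-type cortex and 1 was higher, with a median of -0.40 beside -0.12 for all genes. Cst7 was lower by a log2 difference of -1.43 (adjusted p = 0.00344), Clec7a by -1.08 (adjusted p = 0.017), Ccl3 by -1.07 (adjusted p = 0.0109) and Itgax by -1.0 (adjusted p = 0.0165, limma). Trem2 (-0.66) and Cd9 (-0.61) were lower too. Igf1, a growth factor gene, was the 1 that was higher (0.78, adjusted p = 0.00296, limma), and its aged wild-type value did not exceed the young one (-0.06). The 9 became 4 without aged wild-type replicate 2, without its replicate 3 or without Ttpa-/- replicate 1. The medians against young were 0.65 in aged wild type on the deficient diet and 0.69 in supplemented Ttpa-/- cortex. Homeostatic microglial genes, the receptors and surface proteins of resting microglia, had a median of -0.13 over 14 members. Olfml3 (-0.66) was the 1 down-regulated member. Its other probe (-0.08) was not called, and it was not called without young replicate 4 or Ttpa-/- replicate 3 (-0.53 and -0.57).

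Among 20 complement genes, 16 were tested, 6 were up-regulated and 1 was down-regulated, with a median of 0.44. In aged against young wild type 9 were up-regulated, with a median of 0.66. The direct contrast of Ttpa-/- with aged wild type called 0 members, with a median of -0.20. With single arrays left out it called 0 to 3 as lower. C4b, which encodes the classical pathway component C4, had log2 signals of 4.09, 4.60, 4.85 and 4.80 in Ttpa-/- replicates 1 to 4 and of 1.99, 1.91, 1.82 and 1.36 in young replicates 1 to 4. Its log2 difference of 2.82 ± 0.219 (SE, adjusted p = 5.65e-10, limma) was the largest rise among genes above background on all 8 arrays after the hemoglobins. In aged wild-type cortex C4b was 3.42 above young, and the direct contrast with Ttpa-/- was -0.60 with an adjusted p of 0.0514. C2 (0.95), C3 (0.83), the integrin subunit Itgb2 (0.72), the initiator subunit C1qc (0.59) and the inhibitor Serping1 (0.59) were up-regulated. Cd55, which encodes a cell-surface inhibitor of complement, was lower by -0.74, a call lost without Ttpa-/- replicate 1 (-0.57), in the fit of the 8 arrays alone, and after normexp, under which 4 members were up-regulated.

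Genes for MHC presentation and genes stimulated by interferon were raised as well. MHC class II proteins present extracellular antigen, and of 9 genes 7 were tested and 5 up-regulated, with a median of 0.86. In aged against young wild type 6 of them were up-regulated, with a median of 1.13. The direct contrast of Ttpa-/- with aged wild type had a median of -0.42 and 1 lower member. Cd74, the invariant chain of class II, had log2 signals of -0.23, -0.01, 0.07 and -0.13 in Ttpa-/- cortex and of -1.83, -1.73, -1.49 and -2.41 in young cortex. The groups lay apart, with a log2 difference of 1.79 ± 0.307 (SE, adjusted p = 9.66e-05, limma), and aged wild type was 1.84 above young. H2-Aa (1.31), H2-Ab1 (1.19), H2-Eb1 (0.90) and the peptide-loading gene H2-DMb1 (0.86) followed. H2-Aa was not called after normexp (0.40), and H2-Eb1 was not called without any one of young replicates 2, 3 and 4 or Ttpa-/- replicates 2, 3 and 4 (0.74 to 0.94). MHC class I proteins present peptides from inside the cell. Of 18 genes 17 were tested and 6 up-regulated, namely the heavy chains H2-Q7 (1.05), H2-D1 (0.92) and H2-K1 (0.88), the immunoproteasome subunits Psmb8 (1.0) and Psmb9 (0.80), and the peptide transporter Tap1 (0.74). H2 probes can cross-hybridize among near-identical family members, so which heavy chain carried the signal is uncertain. H2-D1 ranged from 2.42 to 2.70 in Ttpa-/- and from 1.44 to 2.11 in young cortex. The class I median was 0.43 beside 0.62 in aged wild type, and in the direct contrast 0 members were higher and 1 was lower.

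Of 30 interferon-stimulated genes, 28 were tested, 7 were up-regulated and 0 down-regulated, with a median of 0.47. Oas2 (1.61) and Oas1a (0.85) encode sensors of double-stranded RNA, Ifitm3 (0.87) restricts virus entry, and Ifi27l2a (1.3), Trim30a (1.01), Lgals3bp (0.93) and Samd9l (0.59) completed the 7. Oas2 had log2 signals of -2.69, -2.91, -2.94 and -2.39 in Ttpa-/- and of -4.41, -5.12, -3.63 and -4.22 in young cortex, where it was above background on 1 of 4 arrays. After normexp 3 of the 28 were called, and Oas2 (0.53) and Trim30a (0.29) were not. In aged wild type 7 were up-regulated with a median of 0.58, and 0 differed in the direct contrast at the threshold. The interferon regulators Irf7 (0.07) and Irf9 (0.44) were not called.

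Many promoters of this group carry the interferon-stimulated response element, to which the factor complex downstream of the type I interferon receptor binds. The element was searched as GAAA, any 2 bases, GAAA, on both strands, in windows of 300 bases from 250 before to 50 after each gene's start in RefSeq (GRCm38.p6). It was present for 13 of the 22 list members found in the promoter table (59.1%), beside 3.99% of all 27025 genes there. Among the up-regulated members 5 were listed there and 3 held it, Oas1a, Trim30a and Ifitm3, while of the 6 up-regulated MHC class I genes 0 held it. The 100 bases before the start of 2 of these genes are shown because the element lies in them, in capitals, as 2 overlapping copies for Oas1a and as 1 copy on the opposite strand for 1 of the listed starts of Trim30a. The Oas1a stretch is chr5:120907526-120907625 and the Trim30a stretch is chr7:104465194-104465293, both on the minus strand.
Oas1a: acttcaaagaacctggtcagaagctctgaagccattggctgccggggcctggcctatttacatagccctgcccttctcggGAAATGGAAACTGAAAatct
Trim30a: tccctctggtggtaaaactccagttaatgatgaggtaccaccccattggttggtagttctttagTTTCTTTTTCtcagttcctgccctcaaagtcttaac
These are matches of letters and not measured binding sites. Psmb9 and Tap1, which both rose, are transcribed away from each other from starts with 225 bases between them on chromosome 17, a stretch with 0 matches. The antioxidant response element, searched in the same way as TGAC, any 3 bases, GC, was present for 7 of 26 genes of the antioxidant list (26.9%) and for 14.0% of all genes.

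Reactive astrocyte genes formed the next up-regulated group. Of 22 members, 18 were tested, 10 were up-regulated and 0 down-regulated, with a median of 0.71. Leaving out the 4 members at background in both groups, with 1 more at background in 1 group as a bound, gave 0.81. Gfap, the intermediate filament by which reactive astrocytes are recognised, had log2 signals of 3.03, 3.44, 3.64 and 3.26 in Ttpa-/- and of 2.61, 2.31, 2.34 and 1.84 in young cortex. The lowest Ttpa-/- array was above the highest young one, and the log2 difference was 1.07 ± 0.183 (SE, adjusted p = 9.85e-05, limma). The secreted protease inhibitor Serpina3n (1.66), the chemokine Cxcl10 (1.51), the oncostatin M receptor Osmr (1.13), the small chaperone Hspb1 (0.96), Timp1 (0.85), Aspg (0.83), Vim (0.81), Amigo2 (0.81) and Cd44 (0.61) were up-regulated. In aged against young wild type 7 members were up-regulated, with a median of 0.54, among them Gfap (1.51) and Serpina3n (2.22). The direct contrast of Ttpa-/- with aged wild type had a median of -0.17. In that contrast Cxcl10 (-0.94, adjusted p = 0.0439) and Aspg (-0.72, adjusted p = 0.00311, limma) were lower in Ttpa-/- cortex. That count of 2 was 1 without any one of aged wild-type replicates 1, 2 and 3 or Ttpa-/- replicates 2 and 3, 5 without aged wild-type replicate 4 and 0 without Ttpa-/- replicate 1. After normexp 6 members were up-regulated against young, without Cxcl10 (0.57). The 14 homeostatic astrocyte genes, such as the glutamate transporters Slc1a2 (-0.24) and Slc1a3 (-0.04), had a median of -0.11 and 0 calls. In whole tissue, more cells of a type and more RNA per cell cannot be told apart.

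**Figure D3:**
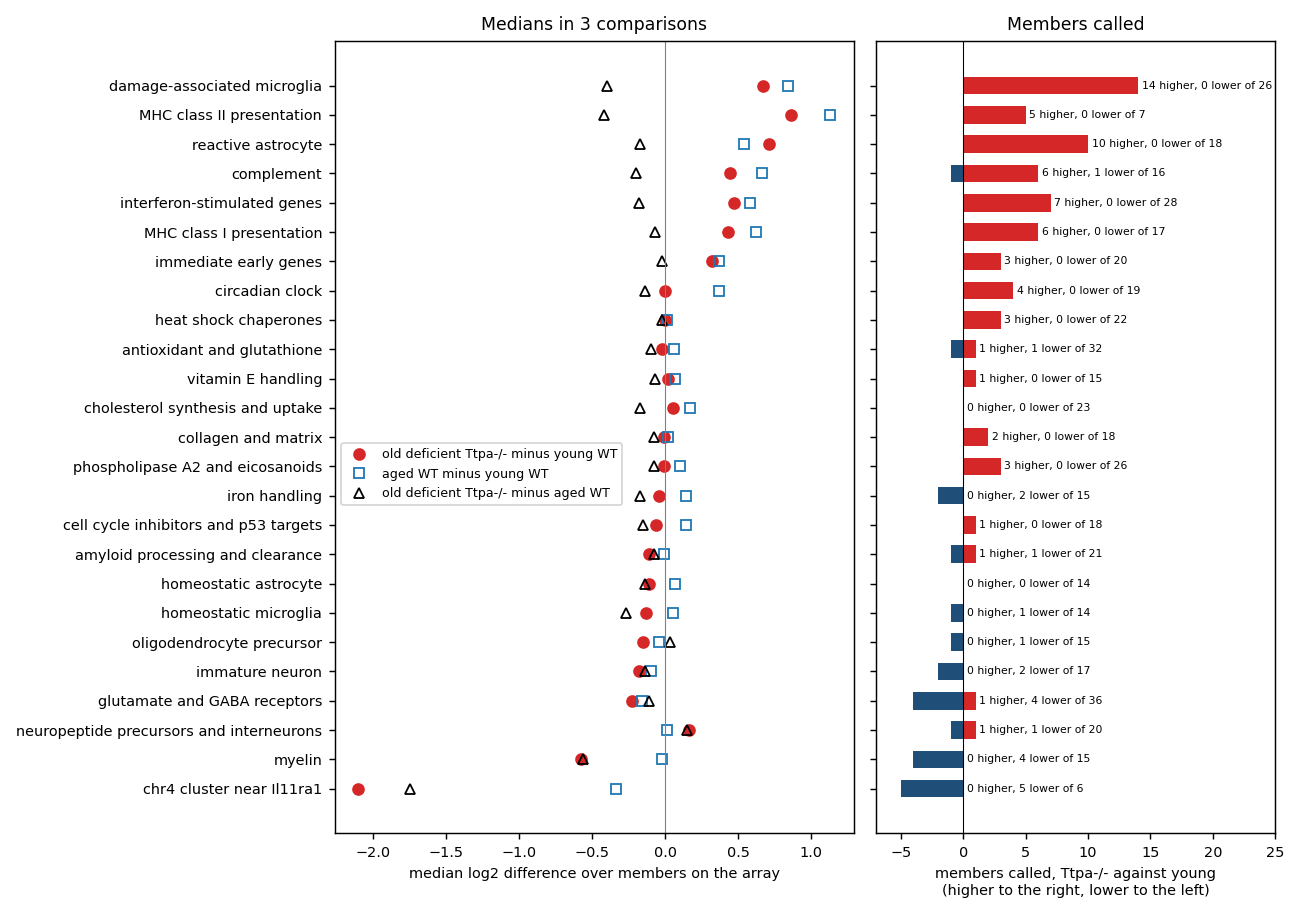
Left, the median log2 difference (x axis) of each gene list (rows) in 3 comparisons, Ttpa-/- minus young (red circles), aged wild type minus young (blue squares) and Ttpa-/- minus aged wild type (black triangles). Right, the number of members called against young (red to the right for higher, blue to the left for lower), from 14 of 26 damage-associated microglial genes to 4 down-regulated myelin genes of 15 and 5 of 6 in the chromosome 4 cluster, with the myelin median at -0.58 in Ttpa-/- and -0.02 in aged wild type.

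Myelin genes moved the other way. Of 16 members, 15 were tested, 4 were down-regulated and 0 up-regulated, and 14 of the 15 tested had a negative difference, with a median of -0.58 beside -0.10 for all genes. Opalin, an oligodendrocyte membrane protein gene, had log2 signals of -2.06, -1.44, -1.07 and -1.38 in Ttpa-/- and of 0.26, 0.06, 0.07 and 0.28 in young cortex. Every Ttpa-/- array was below every young array, with a log2 difference of -1.66 ± 0.388 (SE, adjusted p = 0.00213, limma). Mal, a proteolipid of compact myelin, had 4.14, 4.59, 4.69 and 4.86 in Ttpa-/- and 5.66, 5.44, 5.27 and 5.73 in young cortex, a difference of -0.96 ± 0.191 (SE, adjusted p = 0.000475, limma) with no overlap. Cnp, which encodes a phosphodiesterase of the myelin sheath (-0.70), and Fa2h, which makes hydroxylated myelin lipids (-0.67), were down-regulated. The call of Cnp was lost without young replicate 4 (-0.56), and that of Fa2h without young replicate 1 (-0.59) or Ttpa-/- replicate 1 (-0.54). The structural myelin genes Mog (-0.29) and Mbp (-0.20) were not called. Median scaling left 2 members called, and so did leaving out the 2 arrays low in choroid plexus together, with a median of -0.34.

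In aged wild-type cortex the myelin median against young was -0.02 with 0 calls. The direct contrast of Ttpa-/- with aged wild type had a median of -0.56 and 3 down-regulated members, Opalin (-1.16, adjusted p = 0.034), Mal (-0.80, adjusted p = 0.00383) and Trf, the iron carrier transferrin (-0.70, adjusted p = 0.0296, limma). That count rested on single arrays. It was 1 without aged wild-type replicate 2, without its replicate 3 or without Ttpa-/- replicate 1, 6 without Ttpa-/- replicate 4 and 10 without aged wild-type replicate 4. Aged wild-type replicate 4 had a myelin sum of 270 and a choroid plexus sum of 4.2, against 402 to 509 and 52.2 to 148 on the other 3 aged wild-type arrays. The summed myelin signal was 222 to 305 in Ttpa-/- and 339 to 419 in young cortex. The median against young was -0.35 in aged wild type on the deficient diet and 0.00 in supplemented Ttpa-/- cortex, and Opalin ranged from -2.01 to -0.03 in the former and from -0.40 to 0.17 in the latter. Of markers of neighbouring regions, 1 of 10 tested for cerebellum and 1 of 7 for hippocampus were down-regulated, 2 of 7 for thalamus (Prkcd and Calb2, neither called without young replicate 4) were up-regulated, and 0 of 12 for striatum were called. Against aged wild type, 3 of the 12 striatal markers were higher in Ttpa-/- cortex, with a list median of 0.44, and in aged against young wild type 3 were lower, with a median of -0.62. The summed striatal signal was 67.0 to 78.2 in Ttpa-/-, 46.0 to 59.2 in aged wild-type and 80.8 to 101 in young cortex. The part of these region markers in the myelin values was not tested. The 15 oligodendrocyte precursor genes had a median of -0.15. Gpr17, a receptor of maturing precursors, was the 1 down-regulated member (-1.01 ± 0.232, SE, adjusted p = 0.00171, limma), with aged wild type at -0.84.

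The deepest falls lay together on chromosome 4, which also carries Ttpa. In the files' mm9 coordinates, the transcripts Ccl27a, Gm13308, Gm13298, Gm1987, Ccl19 and 4933409K07Rik lie 21.76 to 22.51 Mb from the Ttpa probe (chr4:19957856-19957915), and Gm3893, which is placed on an unassigned contig, moved with them (-4.65). They belong to a repeated region of near-identical copies, so the probes share signal and cannot be assigned to single copies. 4933409K07Rik had log2 signals of -6.57, -0.89, -5.14 and 0.22 in Ttpa-/- replicates 1 to 4 and of 1.64, 2.05, 1.68 and 1.94 in young replicates 1 to 4. It exceeded background on 2 of the 4 Ttpa-/- arrays, and its difference was -4.92 ± 1.02 (SE, adjusted p = 0.000706, limma), which the fit of the 8 arrays alone did not call. The brightest Gm13298 probe had -5.01, -0.63, -4.33 and 0.11 in Ttpa-/- and 1.80, 1.86, 1.90 and 2.41 in young cortex (-4.46 ± 0.862, SE, adjusted p = 0.000348, limma). In both, Ttpa-/- replicates 1 and 3 lay far below replicates 2 and 4, and all 4 lay below the young arrays.

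Gm1987 repeated this split, with -2.24, 1.40, -1.83 and 2.01 in Ttpa-/- and 3.37 to 4.27 in young cortex. Ccl27a, which encodes a skin-homing chemokine, was less divided, with 2.64, 3.07, 2.47 and 3.73 in Ttpa-/- and 4.96 to 5.31 in young cortex (-2.10 ± 0.22, SE, adjusted p = 7.8e-08, limma), and its other 2 probes gave -2.0 and -2.02. Gm13308 fell by 1.81 on the log2 scale (adjusted p = 2.96e-10, limma), the smallest adjusted p among the named genes. Of the genes set for this cluster, 7 were on the array, 6 were tested and 5 were down-regulated. The median of the 7 was -2.10, and leaving out the 1 member at background in both groups gave -3.28. Ccl19, a lymphoid chemokine gene, was the least changed of the 5 (-0.91), and Il11ra1 (-0.45) was not called. In aged wild type the median was -0.34 with 0 calls, and in the direct contrast 5 were lower. The supplemented Ttpa-/- cortex, which has the same genotype label, had a median against young of -0.43, and its 4 arrays of the brightest Gm13298 probe read 1.38, 1.23, 1.80 and 1.73. When only probes above background on all 8 arrays were kept, 2 members were called, and 3 were in the fit of the 8 arrays alone.

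Car8, which encodes a carbonic anhydrase-related protein that binds the inositol trisphosphate receptor, lies on the other side of the Ttpa probe, at -11.89 Mb. Its brighter probe had log2 signals of -5.71, -4.61, -7.13 and -3.32 in Ttpa-/- and of -1.76, -1.90, -2.06 and -1.10 in young cortex, with 2 of 4 Ttpa-/- arrays above background and a difference of -3.49 ± 0.476 (SE, adjusted p = 6.44e-06, limma). Its second probe, at background on every Ttpa-/- array, was at least 4.09-fold lower (adjusted p = 1.02e-08, limma). The groups did not overlap on either probe. Unlike the repeated region, Car8 was also low in the supplemented Ttpa-/- cortex, at -6.17, -6.08, -4.90 and -6.30 on the brighter probe. In aged wild type it was -2.69 to -2.27 on the normal diet and -3.43 to -2.31 on the deficient diet, and the direct contrast was -2.71 (adjusted p = 0.000307, limma).

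**Figure D4:**
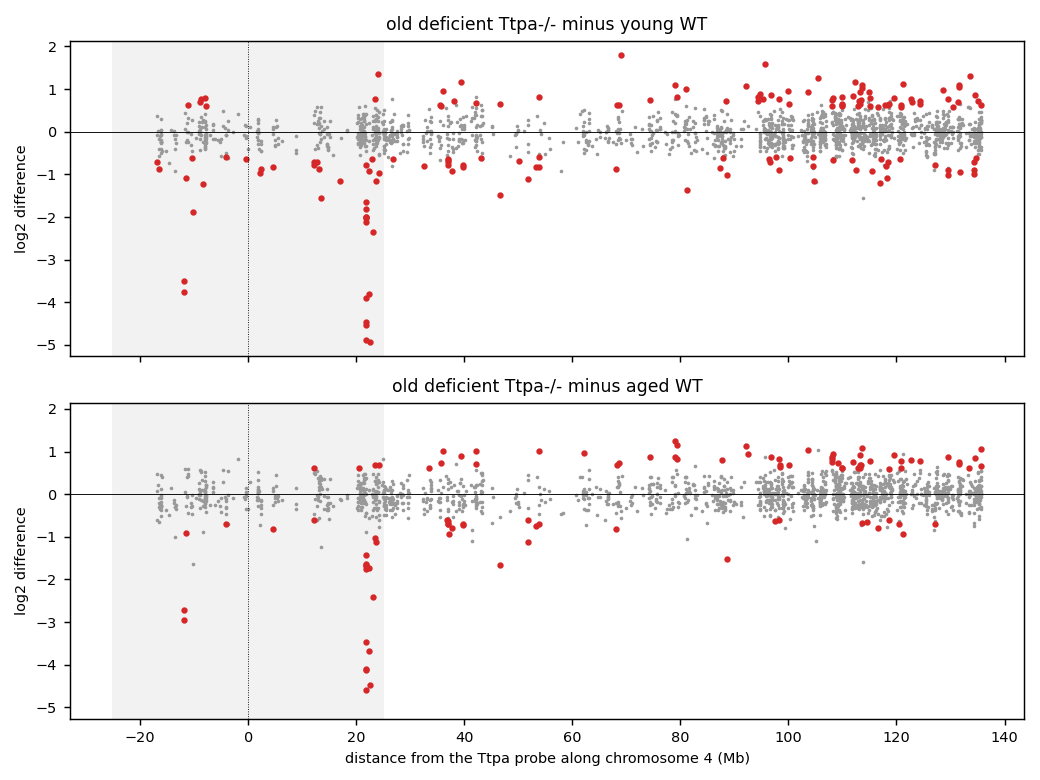
Log2 difference of each tested probe on chromosome 4 (y axis) by its distance in Mb from the Ttpa probe (x axis, mm9), against young (top) and against aged wild type (bottom), with called probes in red and the 25 Mb on either side shaded. Down-regulated probes gathered near 22 Mb and at -11.89 Mb (Car8), and 37 of the 351 shaded probes in the top panel were down-regulated against 7 up-regulated.

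Within 25 Mb of Ttpa, 44 of 351 tested probes were called (12.5%), 37 down and 7 up. On the rest of chromosome 4 the share was 7.68% of 1524 and on the other chromosomes 7.88% of 26832. The down-regulated shares were 10.5%, 3.08% and 3.57%. Probes of 1 repeat are not independent, so no test was made. Besides the repeat and Car8, the down-regulated probes there included Klhl32 (-0.83), a Cullin adaptor gene, the kinase gene Map3k7 (-0.79 and -0.72), the galactose enzyme gene Galt (-0.78) and the transcription factor gene Creb3 (-1.14), and Glipr2 was up-regulated (1.36). These 5 were chosen after their values were seen. In supplemented Ttpa-/- cortex the differences from young were -0.58 for Klhl32, -0.72 and -0.63 for Map3k7, -0.66 for Galt and -0.08 for Creb3. In the same order they were -0.15, -0.22 and -0.14, -0.87 and 0 in aged wild type on the deficient diet. In aged wild type on the normal diet they were -0.01, -0.32 and -0.1, -0.34 and -0.02. Glipr2 differed by 0.75, 0.97 and 0.89 in these groups, in that order.

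The remaining genes with large changes belonged to no single group. Plin4, a lipid droplet coat protein gene, was up-regulated by 2.15 ± 0.671 (SE, adjusted p = 0.0174, limma), with 0.00, 1.29, 0.74 and 0.05 in Ttpa-/- and -1.38, -1.89, -2.19 and -1.05 in young cortex. Its call was lost without young replicate 3 (1.96) or Ttpa-/- replicate 2 (1.90). Scn10a, a sodium channel gene of sensory neurons (2.07), was not called without the 2 arrays low in choroid plexus (1.86). BC061194 (2.05, other probe 2.32), Cd209f, a lectin gene (1.81), and Slc22a18, a membrane transporter gene (1.66), also rose. They were named among the largest rises without overlap, so non-overlap was a condition of their choice. The macrophage chemokine Ccl8 was above background on 0 of 4 young arrays and at least 2.84-fold higher (adjusted p = 6.57e-05, limma), and was not called after normexp (0.82). Plin4 (2.41), BC061194 (2.11), Cd209f (1.60) and Slc22a18 (1.14) were also up-regulated in aged against young wild type, as was Ccl8, against the same young arrays at background, and Scn10a (1.32) was not.

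Pglyrp1, an innate immune protein gene, had log2 signals of 0.22, 0.03, 0.62 and -0.42 in Ttpa-/- and of -1.66, -1.78, -1.96 and -1.33 in young cortex. It was up-regulated by 1.80 ± 0.276 (SE, adjusted p = 2.68e-05, limma), and was also above aged wild type (1.02, adjusted p = 0.00944). Ace, the angiotensin-converting enzyme, ranged from -0.60 to 0.18 in Ttpa-/- and from -2.14 to -1.18 in young cortex (1.35 ± 0.24, SE, adjusted p = 0.000137, limma), with a direct contrast of 1.02 (adjusted p = 0.00363). Olfr1251 (1.26 against young and 1.1 against aged wild type) and 9030625A04Rik (at least 2.05-fold against young, 0.82 against aged wild type) had the same pattern, and both lost their call against young after normexp.

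Among falls outside the groups above, Lct, the lactase gene and a hippocampal marker, was lower by -1.66 (adjusted p = 0.00011, limma), with 7 of its list's 10 members tested and no other called. Sgk2, a serum-regulated kinase gene (-1.47), D0H4S114, now named Nrep (-1.55), and Klhl1 (-1.35) were named among the largest falls without overlap. Gcm1 (-1.58) and Rhox8 (-1.55) had nearly equal values array by array, such as 3.88 and 3.75 on Ttpa-/- replicate 1, and the Gcm1 probe is placed on another chromosome than its gene, so its name is uncertain. The other Rhox8 probe was called in the opposite direction (0.77), so no direction can be given for Rhox8. Zar1, at least 3.71-fold lower, and 7530428D23Rik, at least 2.88-fold lower, were above background on 0 of 4 Ttpa-/- arrays. Zar1 was also called lower in aged against young wild type, where it was at background on every aged array.

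Few genes that handle vitamin E and oxidants were called, a share near that of all genes (4.17% up-regulated and 2.86% down-regulated). Of 19 vitamin E genes 15 were tested and 1 was called, Pltp, the phospholipid transfer protein that moves α-tocopherol between lipoproteins. Pltp had log2 signals of 2.33, 2.19, 2.25 and 1.73 in Ttpa-/- and of 1.23, 1.54, 1.28 and 1.23 in young cortex (0.81 ± 0.198, SE, adjusted p = 0.00303, limma), and was above aged wild type by 0.75 (adjusted p = 0.00783). No array of the young group reached the lowest of Ttpa-/-. The receptors and transporters Scarb1 (0.16), Lrp1 (0.30), Apoe (0.39) and Abca1 (0.02) were not called. Of 32 antioxidant and glutathione genes, 1 was up-regulated and 1 down-regulated, with a median of -0.02. Gpx3, the secreted glutathione peroxidase, was higher by 1.0 (adjusted p = 0.0106, limma), a call lost without the 2 arrays low in choroid plexus (0.97). Gpx8 was lower by -0.68, a call lost without Ttpa-/- replicate 1 (-0.49). The superoxide dismutases Sod1 (-0.08) and Sod2 (-0.32), Gpx4 (0.10), Nqo1 (0.39), Hmox1 (0.51) and Nfe2l2 (0.34) were not called. Of 23 cholesterol synthesis and uptake genes 0 were called, with a median of 0.05.

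The phospholipase A2 and eicosanoid list, which includes genes that release arachidonic acid from membranes, had 33 members, of which 26 were tested and 3 were up-regulated. Pla2g3, a secreted phospholipase, had -0.96, -0.66, -0.79 and -0.79 in Ttpa-/- and -1.77, -2.11, -1.96 and -2.25 in young cortex, with no overlap. Its difference was 1.22 ± 0.404 (SE, adjusted p = 0.0245, limma), and aged wild type was 0.63 above young without a call. The direct contrast of Pla2g3 with aged wild type was 0.59 and was not called (adjusted p = 0.325, limma). Its other probe (0.78) was not called. The call was lost without young replicate 2 or 4 or Ttpa-/- replicate 2 or 3 (1.14 to 1.22). Alox12b (0.63) was not called without young replicate 3 or Ttpa-/- replicate 1 (0.58 and 0.51), and Pla2g2f (0.62) not without young replicate 3 or 4 or Ttpa-/- replicate 1 or 2 (0.44 to 0.63). The other Alox12b probe (1.27) was also called. Without the 2 arrays low in choroid plexus 0 of the list were called, with 1 probe per gene. A list of 11 genes that the study names was set. Those it reports as changed on its arrays come from these same samples and so are no independent evidence of direction. Ide, Ttpa and Gapdh, also listed, were not picked from the arrays. Of the 11, 10 were matched to probes by symbol and 6 were tested, and Gm2252 was not analysed here. Pla2g3 and Gm3448 (1.37, adjusted p = 0.000989, limma) were up-regulated, and Car8 and Tsga10 were down-regulated, Tsga10 by -0.62 with a call lost in 5 of the 8 leave-outs and at -0.52 without young replicate 1. Against aged wild type, Gm3448 (0.46, adjusted p = 0.286) and Tsga10 (-0.03, adjusted p = 0.946, limma) were not called. Ide, the insulin-degrading enzyme, was not called against young (-0.30). It was lower than in aged wild type (-0.66, adjusted p = 0.0265, limma), which was itself 0.37 above young without a call. Its log2 signals were 1.63, 1.58, 0.91 and 0.60 in aged wild type and 0.53, 0.49, 0.50 and 0.55 in Ttpa-/- cortex. Car8 and Ide were the 2 listed genes lower in the direct contrast, and that count was 1 to 2 with single arrays left out. Fcgbp, Mybpc2 and Tcp10c were not tested because neither group was above background on all 4 arrays, and the brightest of 8 Gapdh probes differed by 0.04, with the others at 0.18 to 0.49 and 0 called.

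In other groups few members were called. In the list of amyloid processing genes, Ncstn, a γ-secretase subunit, was higher (1.08, adjusted p = 0.00161, limma) and not called after normexp (0.36), while the protease gene Bace2 was lower (-0.83, adjusted p = 0.00114, limma, other probe -0.48 and not called) and not called without the 2 arrays low in choroid plexus (-0.51). App (-0.13), Bace1 (-0.11) and the other members tested were not called. Col6a1 (0.87) and Col6a2 (1.13), chains of collagen VI, were the 2 called of 18 tested matrix genes, and Col6a1 was not called without the 2 arrays (0.49). The meningeal and fibroblast markers Igf2 (0.77), Slc6a13 (0.64) and Slc22a6 (0.60), 3 of 9 in that list, were up-regulated beside them, each losing its call without young replicate 4, and their part in the collagen values was not tested. Col6a2 was also above aged wild type (0.76, adjusted p = 0.00745, limma). The senescence-associated Cdkn2a, above background on 0 of 4 young arrays, was at least 1.67-fold higher (adjusted p = 0.000264, limma) and was not called after normexp (0.34). Cdkn2a was also up-regulated in aged against young wild type, against the same young arrays at background. The transferrin receptor gene Tfrc fell by 0.81 on the log2 scale (adjusted p = 0.00013, limma) with its other probes at -1.25 and -1.71. The iron exporter gene Slc40a1 (-0.62) was not called without young replicate 1 or 4 or Ttpa-/- replicate 2 or 3 (-0.63 to -0.55).

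Among neuronal and stress genes, Fosb had 1.40, 1.48, 1.67 and 1.55 in Ttpa-/- and -0.19, 0.57, 0.63 and -0.33 in young cortex (1.36 ± 0.195, SE, adjusted p = 1.24e-05, limma). Junb (0.96) and Klf4 (0.63) were the other up-regulated immediate early genes of 20 tested, and without the 2 arrays low in choroid plexus 1 was called. Klf4 was not called without young replicate 4 (0.45) or Ttpa-/- replicate 4 (0.57). Fos (0.60), Arc (0.60) and Egr1 (-0.07) were not called. In aged against young wild type, Fosb (0.98) and Klf4 (0.71) were up-regulated and Junb (0.45) was not called. The heat shock genes Hspb1 (0.96), Hspa1a (0.81) and the co-chaperone gene Bag3 (0.61) rose of 22. The call of Bag3 was lost without young replicate 2 or 4 or Ttpa-/- replicate 4 (0.56 to 0.58). In aged against young wild type Bag3 (0.62) was up-regulated, and Hspb1 (0.47) and Hspa1a (0.51) were not called. Of 19 clock genes, Bhlhe40 (0.96), Per1 (0.60), Per3 (0.59) and Bhlhe41 (0.59, other probe 0.24 and not called) were called, and without young replicate 2 or 3 or Ttpa-/- replicate 1 or 2 the count of up-regulated ones was 1, and it was 2 without young replicate 1. Of 36 glutamate and GABA receptor genes, Gabra2 (-0.72), Gabbr2 (-0.63), Gabrd (-0.61) and Grm7 (-0.60) were down-regulated and Grin2d (0.88) was up-regulated, with a median of -0.23. The other Gabbr2 probes were at -0.05 and -0.17 and not called. Without young replicate 4 or Ttpa-/- replicate 2 or 3, 2 were down-regulated. The immature neuron genes Sox4 (-0.67, other probes -0.40 and -0.54 and not called) and Dpysl3 (-0.65) were the 2 called of 17 tested, the latter not without Ttpa-/- replicate 1 (-0.58). The interneuron genes Calb1 (-0.59) and Calb2 (0.77) were called in opposite directions, and each lost its call in at least 1 leave-out of a single array, at -0.46 without Ttpa-/- replicate 1 and 0.53 without young replicate 4.

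**Figure D5:**
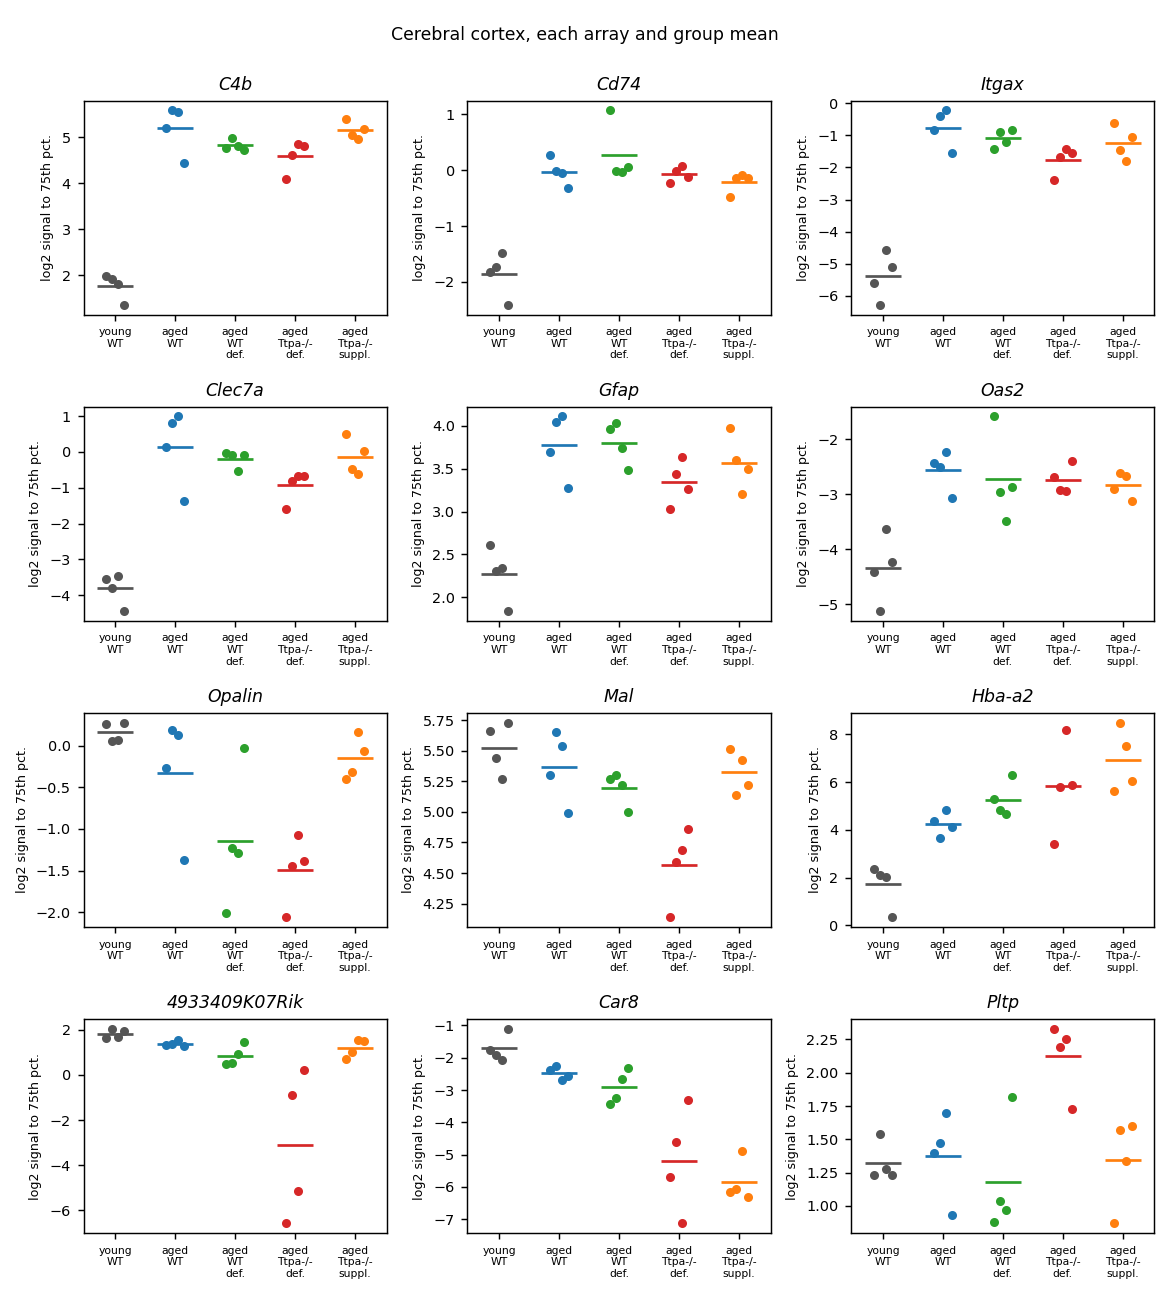
Log2 signal relative to the array's 75th percentile (y axes) of 12 genes on each of the 20 cortex arrays (points) with the group mean (short lines), for young wild type, aged wild type, aged wild type on the deficient diet, and aged Ttpa-/- on the deficient (def.) and supplemented (suppl.) diets. C4b, Cd74, Itgax and Clec7a were high in every aged group, Opalin and Mal were lowest in the deficient Ttpa-/- group, 4933409K07Rik was scattered from -6.57 to 0.22 there, and Car8 was low in both Ttpa-/- groups.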

How the data were processed

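RNA from whole cerebral cortex and cerebellum was hybridized to 1-colour Agilent arrays, 40 in all, and the 20 cortex arrays carry the values reported. Per the file headers, the authors deposited intensity values made with Agilent Feature Extraction 10.7.3.1, background-subtracted and detrended within each array but not normalized between arrays (the submitters' processing notes name version 10.1.1.1). A table of log2 values from the same arrays, as deposited, lay within a median of 0.000915 of the scaled values used here and served as an alternative.

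Of 62976 spots per array, 59305 measure genes. Control spots and outlier spots were left out, spots of 1 probe were averaged, and log2 intensity minus each array's log2 75th percentile gave 55589 probes. A probe counted as above background on an array where at least 50% of its spots did. Limma 3.58.1 in R 4.3.3 (data.table package, version 1.17.8) was fitted over all 40 arrays with 1 coefficient for each of 10 groups, and p-values were adjusted by Benjamini-Hochberg over the tested probes of each contrast. Intensity limits the precision of dim probes, and 4 arrays a group limits that of all. At-least folds set the bright group's mean against the higher of the dim probe's own signal and the lowest signal well above background on each array. Of 21916 transcript identifiers 20591 matched RefSeq. For 15 called probes the position and the gene's chromosome differ, so their names are uncertain. Scripts were tested on simulated data.

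Named genes were the 12 largest rises and 12 largest falls without overlap and above background on all 8 arrays, the 3 largest each way at background in 1 group, up to 4 called members of each list, the genes the study names, the 4 largest each way that also differed from aged wild type, and called markers of other tissues. Other list members were named after their values were seen. The members and lists were chosen with earlier results of these data known. The study's methods name a fold change over 1.5 and a t-test, and the alternatives tried were other scalings, background corrections, filters, array sets, tests, a replicate block and leaving out arrays. Replicate numbers did not pair the arrays. Each group lay on 1 of 5 slides, so a slide term had no estimate.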

Additional observations from a re-analysis of the deposited data

Results flagged for a closer look

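Among 204 groups of 4 arrays behind the named values, 22 held an array far from the other 3 by Dixon's criterion, which chance alone would meet in about 1 group in 20. Of these, 13 were on young replicate 4, the array low in choroid plexus transcripts. Its log2 signals were low for Hba-a1 (-1.78), Hba-a2 (0.35), Hbb-b2 (-4.83), Ifi27l2a (-1.16), Lgals3bp (1.25), Gabra2 (1.1), 9030625A04Rik (-4.94) and Slc6a13 (0.32). They were high for Gm1987 (4.27), Gm3893 (1.33), Gm13298 (2.41), H2-D1 (2.11) and Gabrd (4.36). Young replicate 2 was high for Pltp (1.54). Ttpa-/- replicate 1 stood apart for 7530428D23Rik (-6.22), Col6a2 (-0.16), Gpx8 (-1.01), Hspa1a (0.84) and Gabrd (3.63), replicate 3 for Per3 (-2.86), and replicate 4 for the second Car8 probe (-4.91) and Grin2d (-3.67).

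The same contrast, old deficient Ttpa-/- minus young wild type, was measured in cerebellum, and the difference between the regions passed an adjusted p of 0.05 in limma for 27 of 102 called named probes. These probes were chosen by their call in the cortex contrast, which is part of that difference. The share passing over all probes was not counted, so 27 of 102 does not measure how far the regions differ. The values that follow are cortex minus cerebellum on the log2 scale. The difference was smaller in cortex for the chemokine gene Cxcl10 (-2.35) and the microglial gene Gpnmb (-1.63), both above background on all 4 young cortex arrays, and for Ccl5 (-1.46) and Clec7a (-1.35), above it on 3 of them. Lgals3bp (-1.25) and Psmb8 (-0.83) had the same direction. For Cst7 (-2.56), Ccl3 (-2.51) and Itgax (-1.97) the fitted values do not show a smaller rise in cortex, because Cst7 and Itgax were above background on 0 of 4 young cortex arrays and Ccl3 on 1 of 4, so that their cortex rises are limited by the background.

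The class II chain Cd74 went the other way at 1.55, with 1.79 in cortex and 0.24 in cerebellum. Higher differences in cortex were also found for Ncstn (1.68), Calb2 (1.48), Junb (1.2), Ace (1.1), Igf2 (1.08), Col6a2 (0.97), Grin2d (0.97), Bhlhe40 (0.7) and Hspa1a (0.55). Gabra2 (0.79) was lower than young in both regions, at -0.72 in cortex and -1.52 in cerebellum. The dimmer Gm13298 probe named (-1.48), Bace2 (-0.77) and Sox4 (-0.62) were down-regulated in cortex and differed by -0.17, -0.05 and -0.05 in cerebellum. Fitted values of Zar1 (-2.86), 7530428D23Rik (-2.02), Lct (-1.79) and 9030625A04Rik (1.15) also passed, but these probes were not tested in cerebellum, and all but Lct were at background on every array of 1 cortex group, so their sizes cannot be read. The cause of these differences was not tested.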

How the results depend on the processing

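The main counts were 1261 up-regulated and 1052 down-regulated probes. Adjusted p alone gave 3531 and 4009, normexp background correction 537 and 572, genes in place of probes 563 and 395, array weights 1614 and 1623, and the methods' t-test after Benjamini-Hochberg adjustment 836 and 889. With the replicate block the counts were 1278 and 1088, and the block ended no call of a named gene. Same-numbered arrays had correlations of -0.122, 0.127, 0.262 and -0.315, so the numbers were not taken as pairs. Leaving out 1 array at a time gave 953 (without Ttpa-/- replicate 1) to 1552 (without Ttpa-/- replicate 4) up-regulated and 875 (without Ttpa-/- replicate 3) to 1232 (without Ttpa-/- replicate 4) down-regulated probes. Leaving out young replicate 4 and Ttpa-/- replicate 1 together, chosen after seeing the data, gave 947 and 799. Median scaling gave 1186 and 763, which raised the up-regulated share of the calls from 54.5% to 60.9%, and 1020 and 1045 came from the 8 arrays alone. No called named probe changed direction under any setting checked for it. The t-tests, unadjusted p, fold change alone, adjusted p alone and genes in place of probes were not checked for single named probes. The filter on all 8 arrays held a value for 81 of the called ones. Of 102 called named probes, 58 were called under every setting in which they were checked and 75 without any single array, while normexp ended 27 calls. The cause of these losses was not tested. Slide as a block could not be fitted.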
